A study of Mus musculus with 12 samples.

Results

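The regions described here are 175 bins of 10 kb in mouse embryonic stem cells (ESCs) whose whole number in column 4 of the deposited lists was higher by 5 or more 24 h after induction of a KLF knockout than at 0 h. They were chosen by that difference in raw numbers among the 41942 bins listed at both times, so 0.417% of bins are members, and 777 bins (1.85%) were lower by 5 or more. The difference that chose the bins is given as a description. Each time is represented by 1 deposited list for 2 replicates, which leaves no replicate error, so no difference below was tested and the ranges given after shares are exact 95% binomial intervals that cover counting error only.

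Acetylation of histone H3 at lysine 27 (H3K27ac) marks active enhancers and promoters. Active enhancers fold towards the promoters they serve, and an enhancer can contact several genes, which makes a network of linked regions. KLF4 is a zinc-finger transcription factor of naive pluripotency that binds GC-rich and CACCC-type sequence and shares many sites with its relatives KLF2 and KLF5, which can stand in for it in mouse ESCs.

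Chromatin immunoprecipitation sequencing (ChIP-seq) covered 12 samples in 7 groups. The 24 h group (2 replicates, H3K27ac) was V6.5 ESCs that carried a lentiviral c3GIC9 vector with doxycycline-inducible Cas9 and guides, after 24 h of doxycycline. The protocol allows guides for Klf4 by itself or for Klf2 and Klf5 as well, and the titles carry both TKO and KLF4 KO, so the labels do not settle which genes were targeted. The 0 h group (2 replicates, H3K27ac) was the same kind of cell without induction and therefore carried the vector too. Its sample titles carry both TKO and WT. Both came from puromycin-selected, manually picked clones, and the number of clones behind each list was not given in the sources used here. Loss of the targeted proteins was checked by western blot, per the protocol, and the lists hold no measure of it. Induced pluripotent stem cells (iPSCs) gave 2 replicates for KLF4 and 2 for H3K27ac, and 4 input libraries completed the set. Read depth is unknown, and in bulk lists fewer cells with a link or mark and less of it per cell cannot be told apart. The samples are labelled as grown in 2i, a pair of kinase inhibitors that hold cells in the naive state, and the protocol places ESCs on irradiated feeder cells. KLF4 binding in the ESCs themselves was not analysed here.

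Few gaining bins held a promoter, and the sequences of 5 of those that did are shown because they differ in KLF-type motifs and KLF4 peaks. RefSeq (GRCm38.p6, whose chromosomes mm10 shares) gave 24 promoter windows of 20 protein-coding genes whose start fell in a gaining bin, each with 250 bases before and 50 after the start. The KLF-type motif GGGNGTG, searched on both strands and so also as CACNCCC, was in 10 of these 24 windows (41.7%, 22.1 to 63.4), in 42.5% of windows in losing bins, in 35.6% of windows in bins that changed by less than 5 and in 31.7% of all 21263 windows. An iPSC KLF4 peak overlapped 6 of the 24 windows (25%, 9.77 to 46.7), against 33.0% of windows in losing bins and 31.0% of windows in bins that changed by less than 5. Gadd45g and Cldn5 are in bins with an H3K27ac value at 24 h only and have no KLF4 peak on the promoter. Coro7, Taf8 and Neurl1a each have a KLF4 peak on it. The windows of these 5 genes are printed here. They lie at chr13:51846425-51846724 (plus strand), chr16:18776597-18776896 (plus), chr16:4679671-4679970 (minus), chr17:47502242-47502541 (minus) and chr19:47178570-47178869 (plus). Capitals mark the motif on either strand.
Gadd45g: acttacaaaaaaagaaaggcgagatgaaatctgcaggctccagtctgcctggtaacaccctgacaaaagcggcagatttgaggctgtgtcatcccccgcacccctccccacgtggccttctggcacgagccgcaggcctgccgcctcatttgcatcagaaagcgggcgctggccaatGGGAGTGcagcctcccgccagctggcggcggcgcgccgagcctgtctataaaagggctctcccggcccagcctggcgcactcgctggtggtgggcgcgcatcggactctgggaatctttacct
Cldn5: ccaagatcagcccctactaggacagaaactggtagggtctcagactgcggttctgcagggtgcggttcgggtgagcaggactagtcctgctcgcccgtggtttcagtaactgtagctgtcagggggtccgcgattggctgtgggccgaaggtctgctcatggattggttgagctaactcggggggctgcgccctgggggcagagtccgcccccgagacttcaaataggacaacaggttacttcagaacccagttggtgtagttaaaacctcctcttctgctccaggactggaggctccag
Coro7: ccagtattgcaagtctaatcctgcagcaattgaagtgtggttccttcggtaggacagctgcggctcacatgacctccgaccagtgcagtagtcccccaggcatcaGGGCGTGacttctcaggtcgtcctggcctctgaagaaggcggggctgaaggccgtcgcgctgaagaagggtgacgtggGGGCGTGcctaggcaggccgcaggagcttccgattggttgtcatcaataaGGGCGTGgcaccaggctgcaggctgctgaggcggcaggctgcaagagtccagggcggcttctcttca
Taf8: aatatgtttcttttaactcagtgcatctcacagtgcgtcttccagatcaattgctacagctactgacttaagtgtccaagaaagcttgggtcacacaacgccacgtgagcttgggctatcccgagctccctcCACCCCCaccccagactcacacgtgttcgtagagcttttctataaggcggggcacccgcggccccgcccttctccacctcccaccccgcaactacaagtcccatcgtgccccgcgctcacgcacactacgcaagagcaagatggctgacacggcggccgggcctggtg
Neurl1a: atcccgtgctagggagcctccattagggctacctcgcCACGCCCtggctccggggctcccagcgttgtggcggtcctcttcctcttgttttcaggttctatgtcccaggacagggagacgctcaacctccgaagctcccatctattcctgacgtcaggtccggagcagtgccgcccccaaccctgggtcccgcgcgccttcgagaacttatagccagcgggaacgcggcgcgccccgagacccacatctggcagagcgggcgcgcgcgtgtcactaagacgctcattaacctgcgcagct
The Coro7 window held 3 matches, the Gadd45g, Taf8 and Neurl1a windows 1 each and the Cldn5 window 0. Of the windows with a KLF4 peak that are not printed, that of Mybbp1a and one of Rab3il1 held 0 matches. Another Rab3il1 window held 1. A match describes these letters and is not a shown binding site.

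The lists have no header, and the number in column 4 was read as a count of links between bins from its arithmetic. If each link within a chromosome is counted at both of its ends, every chromosome's sum is even, and it was even on 20 of 20 chromosomes at 24 h and on 20 of 20 at 0 h. When bins were split into blocks wherever more than 1000 kb held no listed bin, the sum was even in 563 of 563 blocks at 24 h and in 556 of 556 at 0 h. With gaps of 500 kb it was even in 1041 of 1047 blocks at 24 h and 1072 of 1082 at 0 h. The protocol names HiChIP, which counts contacts between marked regions, among the study's experiments, but the lists do not tie the number to an assay or a distance limit. The number is called the link number below, with that limit. Sums over several bins, given below in links, are sums of this number. On this reading they count link ends, and a link between bins of the same sum enters at both ends.

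In the gaining bins the link number ran between 6 and 36 at 24 h with a median of 9, against 1 to 30 at 0 h with a median of 3. Summed over these bins the link number was 1771 at 24 h and 747 at 0 h. Over all 41942 bins it was 161776 at 24 h and 176507 at 0 h. The gain was 5 in 98 bins, 6 in 43, 7 in 16, 8 in 8, 9 in 5, 10 in 3, and 12 and 13 in 1 bin each, so most members lie at the threshold. Just outside it, 253 bins gained 4. The summed link number over all listed bins was lower at 24 h, with a ratio to 0 h of 0.904. After the 24 h numbers were scaled to the 0 h total, 250 bins were higher and 329 lower by 5 or more, so the gaining share of such bins was 43.2% in place of 18.4%.

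**Figure D1:**
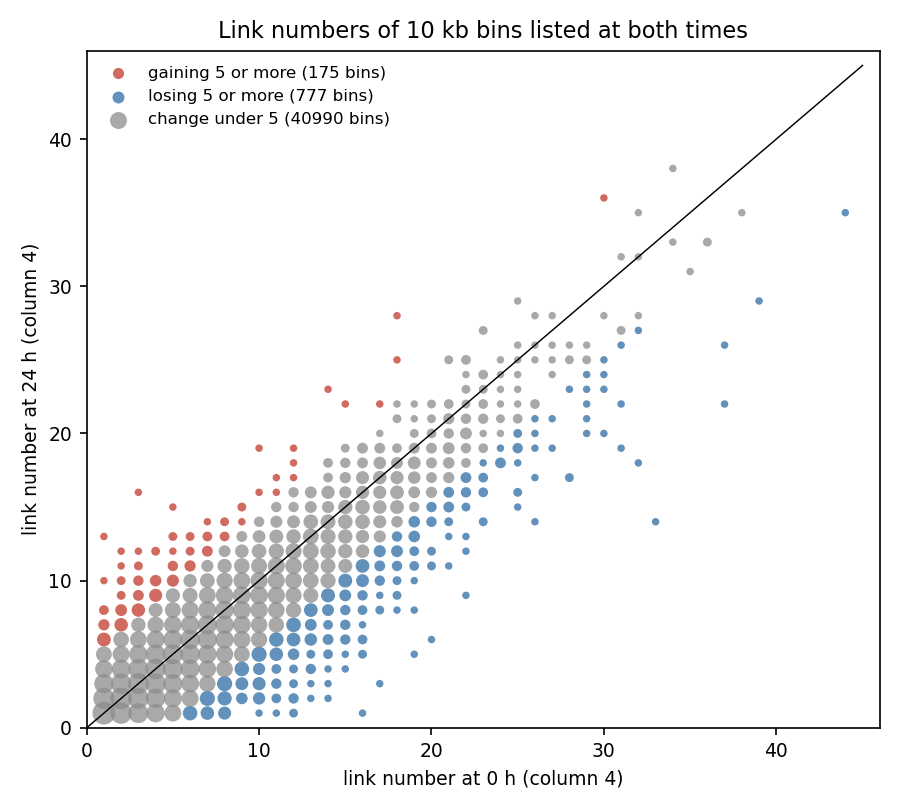
Link number at 24 h (vertical axis) against 0 h (horizontal axis) for the 41942 bins listed at both times, with point size rising with the number of bins at a position and the line marking equal numbers. The 175 gaining bins (red) have a median of 9 at 24 h and 3 at 0 h, the 777 losing bins (blue) a median of 6 at 24 h and 12 at 0 h, and the other bins (grey) a median of 3 at both times.

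Most gaining bins had an H3K27ac value at 24 h and none at 0 h. The lowest values listed were 1.23 at 24 h and 1.24 at 0 h. A bin without a value is therefore not shown to lack the mark. This majority was not kept with a threshold of 4 (44.2%) or after the 24 h numbers were scaled to the 0 h total (42.0%). The deposited H3K27ac signal, in column 10, was present at 24 h only in 99 gaining bins (56.6%, 48.9 to 64.0), at both times in 66 (37.7%), at neither in 10 (5.71%) and at 0 h only in 0 of 175, where a count of 0 allows up to 1.71% by the rule of 3 counts and 2.09% by the exact interval. Among all bins listed at both times, 3.56% had a value at 24 h only and 4.21% at 0 h only. The losing bins had the opposite order, with 1 of 777 valued at 24 h only and 149 (19.2%) at 0 h only. The new values were low. Their median was 3.08 in the 99 gaining bins, against 2.93 in the 1394 other bins valued at 24 h only that changed by less than 5 links, and 4.05 over every valued bin of the 24 h list. Of the 1494 bins valued at 24 h only, 6.63% were gaining, against 0.290% of bins valued at both times and 0.0627% of bins valued at neither.

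The link number and the presence of a value moved together in the whole series. Bins with a value averaged 4.99 links at 24 h and bins without one 1.88, and at 0 h the means were 5.35 and 1.90. Bins valued at 24 h only changed by a mean of 1.47 links and bins valued at 0 h only by -1.75. Whether the authors required H3K27ac at an end of a link was not given in the sources used here, so the value is not known to be independent of the number. Its part in the gain was not tested.

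The share valued at 24 h only also varied with the size of the gain. Among bins that gained 6 links 46.5% of 43 bins were valued at 24 h only, among those that gained 5 it was 59.2% of 98, among those that gained 4 it was 35.6%, among those that gained 3 it was 21.4%, and among the 16870 bins with equal numbers it was 2.33%. The median relative change of the value was 0.62 in bins that gained 6, 0.30 in bins that gained 5 and 0.29 in bins that gained 4.

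In the 66 gaining bins valued at both times the H3K27ac value was mostly higher at 24 h relative to the rest of the genome. The median value was 5.10 at 24 h and 4.00 at 0 h, while over all 22739 bins valued at both times it was 4.21 at 24 h and 4.90 at 0 h. The normalization of the lists is not given, so each log2 ratio of 24 h over 0 h was set against the median of all such bins (-0.23). On that relative log2 scale the median of the gaining bins was 0.38 (0.29 to 0.59), with 57 of 66 above 0. Without this centring it was 0.16. A value higher by 0.5 or more was found in 28 of the 66 (42.4%), against 7.25% of all bins valued at both times, and one lower by 0.5 or more in 0 of the 66, against 7.74%. The 610 losing bins valued at both times had a median of -0.29, with 4 higher and 198 lower by 0.5.

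The direction held at each level of linking. Bins with a summed link number of 7 to 9 over both times had a median relative value of 0.51 in 9 gaining bins and 0.02 in 4190 bins that changed by less than 5. For sums of 10 to 14 the medians were 0.42 in 15 gaining bins and 0.00 in 5344 others, for 15 to 19 they were 0.41 in 19 and -0.01 in 2815, for 20 to 29 they were 0.33 in 15 and -0.03 in 1920, and for 30 or more 0.31 in 8 and -0.05 in 539. In the lowest class the interval of the gaining bins reached below 0 (-0.05 to 0.83). Over all bins valued at both times the change in link number and the change in value had Pearson r = 0.36 and a Spearman rank correlation of 0.34 (n = 22739 bins, which share libraries and often share a value with their neighbour).

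**Figure D2:**
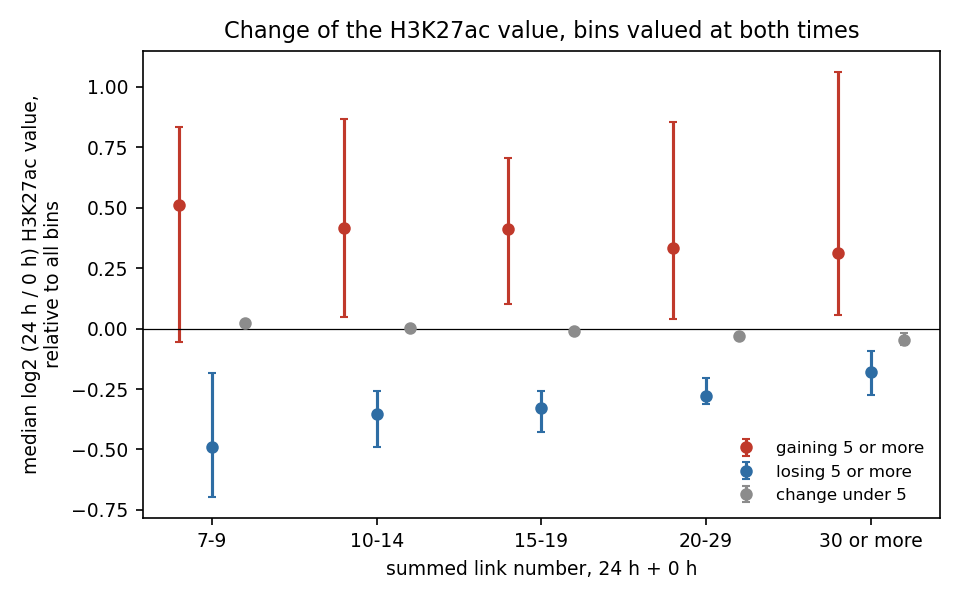
Median relative log2 ratio of the 24 h over the 0 h H3K27ac value (vertical axis) in bins valued at both times, by summed link number (horizontal axis), for bins gaining 5 or more, losing 5 or more and changing by less than 5. Bars are exact 95% binomial intervals of the median, and the gaining bins lie above the others in each class, between 0.31 and 0.51.

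The highest relative values in gaining bins were at Gm536 on chromosome 16 (1.40), Tspan32 on chromosome 7 (1.29), Rab3il1 and Best1 on chromosome 19 (1.07), Ttc7 on chromosome 17 (1.06) and Rapgef5 on chromosome 12 (1.06). Tspan32 encodes a tetraspanin, Best1 a chloride channel and Rapgef5 an exchange factor for RAP GTPases. The Tspan32 bin had 9 links at 24 h and 4 at 0 h, with values of 4.91 at 24 h and 2.34 at 0 h. The bin in Ttc7 had 19 links at 24 h and 12 at 0 h, with values of 6.02 at 24 h and 3.37 at 0 h. Neither of these bins held a KLF4 or H3K27ac peak of iPSCs. The 5 lowest relative values were -0.27 near Sik1, -0.20 at Tasor, -0.18 at Orai1 and Morn3, -0.16 at Dnal4 and -0.14 at Taf8 and Ccnd3. Sik1 encodes a salt-inducible kinase and Tasor a subunit of the HUSH silencing complex. The link number was higher in these bins although the relative value was lower, as at Tasor with 12 links at 24 h and 7 at 0 h and values of 7.11 at 24 h and 9.57 at 0 h.

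Among bins valued at 24 h only, the highest 24 h values were 10.1 in C2cd3 on chromosome 7, 9.26 at Glod5 and 9.0 in Huwe1 on chromosome X, 6.49 in Mb21d2 on chromosome 16 and 5.64 in Cradd on chromosome 10. C2cd3 encodes a centriole protein needed for cilia and Huwe1 a large ubiquitin ligase. Each of these 5 bins gained 5 links and none held an iPSC KLF4 or H3K27ac peak. The C2cd3 bin had 8 links at 24 h and 3 at 0 h, and the bin beside it, valued at both times, had 7 at 24 h and 2 at 0 h. The 10 gaining bins valued at neither time had a mean of 8.30 links at 24 h and 2.90 at 0 h.

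An iPSC KLF4 peak lay in 34 of the 175 gaining bins (19.4%, 13.8 to 26.1), against 61.4% of the losing bins and 25.1% of the bins that changed by less than 5. The 34 bins held 40 peaks, and 6 of them had 2. The shares differed between H3K27ac states. Among bins valued at 24 h only the share was 13.1% (7.18 to 21.4) of 99 gaining bins and 11.0% (9.38 to 12.7) of the others that changed by less than 5. Among bins valued at both times it was 28.8% (18.3 to 41.3) of 66 gaining bins, 68.7% (64.8 to 72.4) of 610 losing bins and 38.2% (37.5 to 38.8) of the rest. After scaling the 24 h numbers to the 0 h total, the gaining share was 25.6%, beside 25.7% in all bins, so the lower share in the gaining bins depends on the scale. A KLF4 peak in the bin or within 10 kb of it was found for 42.9% of gaining, 77.1% of losing and 53.1% of other bins.

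By summed link number the KLF4 share had no steady order in the gaining bins. It was 10.4% of 48 gaining bins with a sum of 7 to 9 and 27.3% of 66 with a sum of 10 to 14, 14.3% of 35 with 15 to 19, 22.2% of 18 with 20 to 29 and 25% of 8 with 30 or more. In bins that changed by less than 5 it was 26.4%, 33.4%, 42.3%, 52.9% and 69.3% in these classes, and in losing bins 39.6%, 52.4%, 63.6%, 70.2% and 75.4%. The intervals of the gaining bins are wide, as in the class of 20 to 29 (6.41 to 47.6), and no difference between classes was tested.

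The 5 gaining bins with the most KLF4 peaks by the naming rule had 2 each. The bin nearest to Fam43a on chromosome 16, 132 kb from its end, had 23 links at 24 h and 14 at 0 h and also 3 iPSC H3K27ac peaks. The Arhgef3 bin had 9 links at 24 h and 2 at 0 h. The bin over the start of Adssl1, an adenylosuccinate synthase gene, and near Inf2, which encodes a formin, had 7 at 24 h and 2 at 0 h. Neither of these held an H3K27ac peak of iPSCs, and both were valued at 24 h only. The bin of Pacsin1 and Spdef had 8 links at 24 h and 3 at 0 h, and that of Taf8, a TFIID subunit, and Ccnd3, encoding cyclin D3, had 17 at 24 h and 12 at 0 h with 7 H3K27ac peaks.

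iPSC H3K27ac peaks lay in 67 gaining bins (38.3%, 31.1 to 45.9), against 79.9% of losing bins and 44.6% of the others. By state the shares were 14.1% of the 99 gaining bins valued at 24 h only and 15.1% of the other such bins, and 80.3% of the 66 valued at both times and 78.4% of the other such bins. In bins with peaks, all peaks of a bin together covered a median of 985 bp in gaining, 2264 bp in losing and 1086 bp in other bins. Gene ends were also considered. For 42 gaining bins a protein-coding gene began or ended in the bin or within 2 kb of it (24.0%, 17.9 to 31.0), against 42.6% of losing bins and 37.5% of the others. The share was also lower in gaining bins than in the others among bins valued at 24 h only, at 17.2% and 29.8%. Among bins valued at both times it was 33.3% of gaining, 45.1% of losing and 46.2% of other bins.

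**Figure D3:**
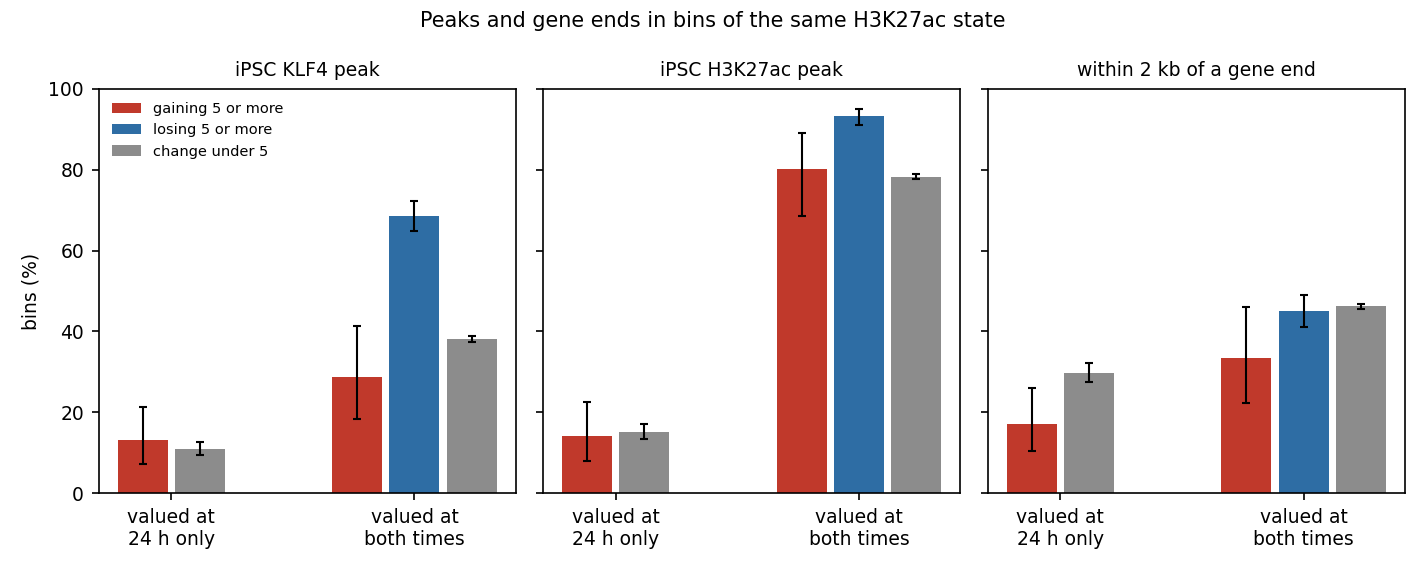
Percent of bins (vertical axis) with an iPSC KLF4 peak, an iPSC H3K27ac peak or a protein-coding gene end within 2 kb, in bins valued at 24 h only and at both times. Bars are gaining (red), losing (blue, shown for bins valued at both times) and other bins (grey) with exact 95% binomial intervals, and the KLF4 share of 28.8% in gaining bins valued at both times stands beside 68.7% in losing bins.

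The group with the most gaining bins surrounded Klf5, which encodes a KLF factor and is among the possible targets that the protocol names. When gaining bins up to 100 kb apart were joined, 175 bins gave 132 groups, of which 110 were lone bins and 6 held 3 or more. The group around Klf5 held 12 gaining bins across 440 kb of chromosome 14 (99140001 to 99580000). Of the 44 bins listed at both times in this stretch, 36 had a higher and 2 a lower link number at 24 h, and 0 lost 5 or more. They summed to 499 links at 24 h and 363 at 0 h. This stretch, like those of the other groups below, runs between its first and last gaining bin. Its counts and sums therefore include the bins that the rule chose, and part of each difference comes from the selection. The 24 listed bins of this stretch valued at both times had a median relative value of 0.30. Within 300 kb of the gene there were 12 gaining bins at Klf5, 1 at Klf4 and 0 at Klf2. The summed link number there, gaining bins included, was 581 at 24 h and 445 at 0 h for Klf5. It was 196 at 24 h and 207 at 0 h for Klf4, and 284 at 24 h and 283 at 0 h for Klf2. None of these numbers reports whether a gene was cut.

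The largest gain of all 175 bins lay 94 kb before the lower end of Klf5, in Pibf1, which encodes a centriolar satellite protein. This bin had 16 links at 24 h and 3 at 0 h, and its H3K27ac value was 2.92 at 24 h with none at 0 h. Pibf1 was also the gene with the most gaining bins, 6. Its 19 listed bins had 169 links at 24 h and 120 at 0 h. The gains of the 6 chosen bins sum to 44, so most of that difference comes from the selection. On the other side of Klf5 the bins 36 and 46 kb past the lower end had 28 and 36 links at 24 h, against 18 and 30 at 0 h. They shared 1 deposited value, 9.72 at 24 h and 10.8 at 0 h, a relative change of 0.08, and held 4 and 5 iPSC H3K27ac peaks. The bin over Klf5 itself had 22 links at 24 h and 15 at 0 h, with 5 such peaks. The bin at its start, which holds 3 iPSC KLF4 peaks, was not a member, with 11 links at 24 h and 10 at 0 h. Of the 12 bins, 4 were valued at 24 h only, 5 at both times and 3 at neither, and 1 held an iPSC KLF4 peak. Without these 12 bins the KLF4 share of the remaining 163 gaining bins was 20.2%.

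**Figure D4:**
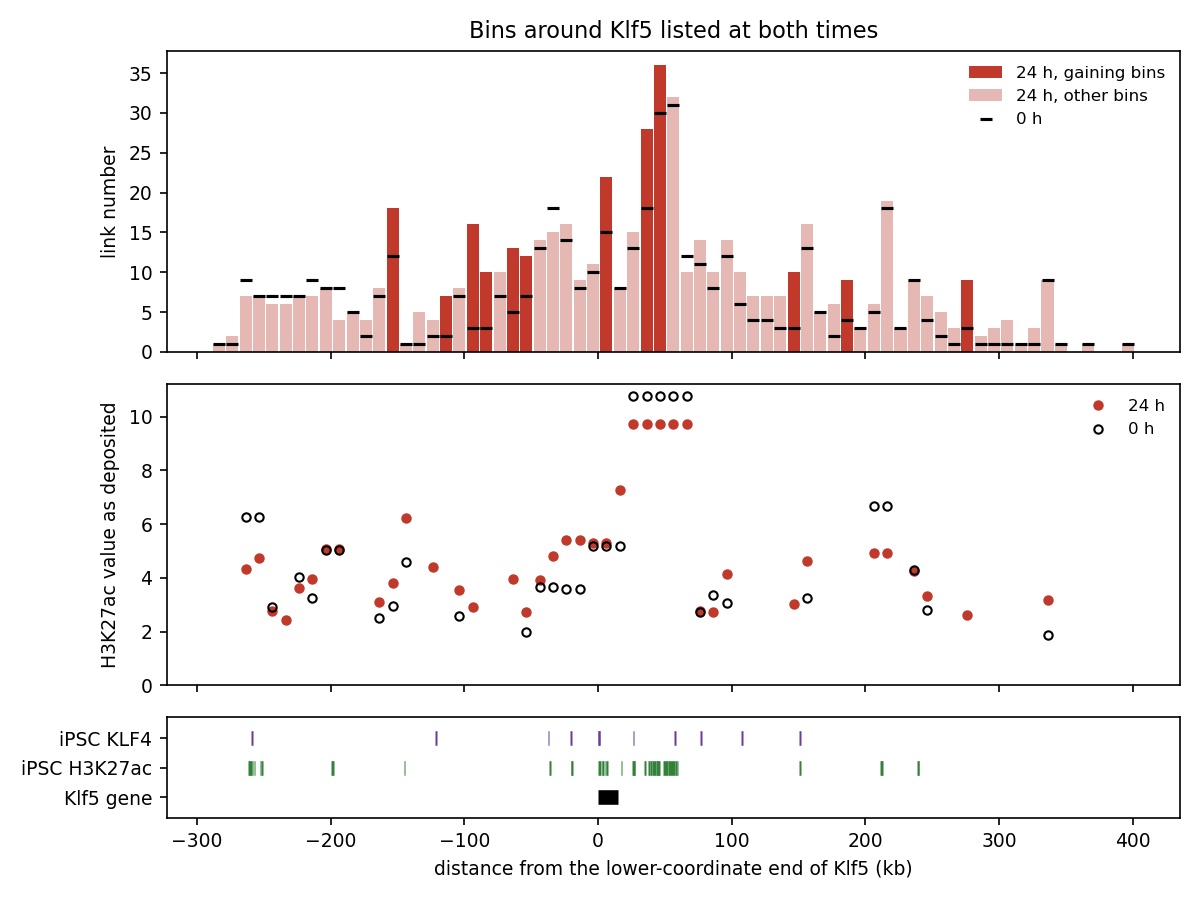
Bins around Klf5 by distance from the lower end of the gene in kb (horizontal axis), with the link number at 24 h as bars (gaining bins dark red) and at 0 h as black dashes (top), the deposited H3K27ac values at 24 h and 0 h (middle) and the iPSC peaks and the gene (bottom). The 12 gaining bins lie on both sides of the gene, between -154 and 276 kb, and most bars exceed their dash.

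The other 5 groups of 3 or more gaining bins were at Gadd45g, Arhgef3, Pacsin2 and Ttll1, the region between Fam43a and Xxylt1, and Exosc1. Around Gadd45g (chromosome 13, 51846675 to 51848475), a stress-response gene that also acts in cell-cycle arrest, 5 gaining bins lay within 130 kb. The 12 listed bins there include these 5. Of the 12, 11 were higher and 0 lower, with 69 links at 24 h and 24 at 0 h. The bin of the gene had 11 links at 24 h and 3 at 0 h and a value of 3.82 at 24 h with none at 0 h, 1 iPSC KLF4 peak and 1 iPSC H3K27ac peak. The next 2 bins had 7 and 6 links at 24 h and 1 each at 0 h, and these 3 bins form the longest run of adjacent gaining bins.

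Arhgef3 on chromosome 14 encodes a guanine nucleotide exchange factor, and its neighbour Il17rd encodes SEF, an inhibitor of FGF signalling. The 4 gaining bins there were all valued at 24 h only, at 3.24 to 3.69, and had 8 to 10 links at 24 h, against 1 to 3 at 0 h. Their stretch of 9 listed bins, these 4 included, held 48 links at 24 h and 17 at 0 h, with 7 higher and 0 lower. iPSC KLF4 peaks lay in 2 of the 4 gaining bins. Pacsin2, for a membrane-bending protein of endocytosis, and Ttll1, for a tubulin glutamylase, on chromosome 15 had 5 gaining bins between them, and their stretch held 78 links at 24 h and 30 at 0 h. Its bins differed in state, with 2 valued at 24 h only, 2 at both times and 1 at neither.

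The region between Fam43a and Xxylt1 (chromosome 16, 30630001 to 30830000) had no protein-coding gene within 10 kb of its 4 gaining bins. It was already well linked, with 208 links at 24 h and 162 at 0 h over 20 listed bins, and 3 of the 4 gaining bins held iPSC KLF4 and iPSC H3K27ac peaks. The bin with the highest link number had 25 links at 24 h and 18 at 0 h, with values of 8.92 at 24 h and 8.12 at 0 h. Near Exosc1, an RNA exosome subunit, and Zdhhc16, a palmitoyltransferase, on chromosome 19, 3 gaining bins were valued at 24 h only and their stretch held 110 links at 24 h and 81 at 0 h.

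Of the 10 bins with the largest gain, 2 belong to the Klf5 group, 1 to Arhgef3 and 1 to the Fam43a region, and 5 others lie on chromosome 19. The bin in Pcx, encoding pyruvate carboxylase, had 13 links at 24 h and 1 at 0 h, with a value of 4.23 at 24 h and none at 0 h. The bin at Ms4a10 and Ms4a15 had 15 at 24 h and 5 at 0 h, that in Rbm20, a splicing regulator known from heart muscle, 19 at 24 h and 10 at 0 h, and the bin at Sf3b2 and Pacs1 12 at 24 h and 3 at 0 h. In Nt5c2, for a cytosolic nucleotidase, 2 adjacent bins had 13 and 11 links at 24 h and 5 and 2 at 0 h, both valued at 24 h only. The remaining bin was in Spire1, an actin nucleator gene on chromosome 18, with 12 at 24 h and 2 at 0 h. Spin1, a histone-reader gene on chromosome 13, was the nearest gene, 73 and 83 kb away, to 2 adjacent bins with 12 and 9 links at 24 h and 4 and 2 at 0 h, whose relative values were 0.97 and 0.80. At Cldn5, for the tight-junction protein claudin 5, 2 adjacent bins had 13 and 10 links at 24 h and 6 and 3 at 0 h, and at Fam167a 2 bins had 13 and 10 at 24 h and 7 and 3 at 0 h.

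Within 10 kb of a protein-coding gene lay 139 of the 175 bins, and they touched 159 genes, 1.27% of the 12479 genes with a bin listed at both times. Bins that lost 5 or more touched 6.11%. The 14 lists of genes held 218 genes, of which 166 had a listed bin, 5 (3.01%) had a gaining bin and 22 (13.3%) a losing bin. The 5 genes were Klf5, Fgfr1, Axin1, Krt8 and Krt18. Of 24 naive pluripotency genes with a listed bin, 1 had a gaining bin (Klf5) and 4 a losing bin, and of 17 KLF and SP family genes 1 and 6. Of 19 shared pluripotency genes 0 had a gaining and 5 a losing bin.

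Fgfr1, the FGF receptor, was the gene with a gaining bin among 18 of the FGF and ERK pathway. That bin had 16 links at 24 h and 11 at 0 h, values of 8.06 at 24 h and 7.49 at 0 h, 1 iPSC KLF4 peak and 5 iPSC H3K27ac peaks. Axin1, a scaffold of the beta-catenin destruction complex, was the gene among 14 of the Wnt and beta-catenin pathway, with 8 links at 24 h and 3 at 0 h and a value of 2.21 at 24 h only. Of 8 trophectoderm genes, Krt8 and Krt18, keratins of simple epithelia, shared a gaining bin between them with 6 links at 24 h and 1 at 0 h. Its value was 5.38 at 24 h with none at 0 h, and it held 1 iPSC KLF4 peak and 3 iPSC H3K27ac peaks. No gaining bin touched the 13 LIF and STAT3 response genes with a listed bin, nor the 22 architectural, cohesin and Mediator genes, 12 polycomb genes, 10 primed or formative genes, 6 primitive endoderm genes, 4 neuroectoderm genes or 3 mesendoderm genes. Fibroblast genes, which feeder cells would bring, had 0 of 5 genes with a gaining bin. Of all 12479 protein-coding genes with a bin listed at both times, 1.27% had a gaining bin. A count of 0 is therefore usual for lists of these sizes. The markers Col1a2, Thy1, Postn and Twist1 had no bin listed at both times. The markers Col1a1, Col3a1 and Loxl1 did, with highest values of 2.59, 6.71 and 10.7 at 24 h and 3.35, 6.15 and 12.1 at 0 h. Signal from feeder cells was not tested. The ESC markers Pou5f1, Nanog, Sox2, Esrrb and Zfp42 had values at both times and no gaining bin. Sox2 and Esrrb each had 1 losing bin. The summed link number of each of these markers was lower at 24 h, as it was over all bins. It was 140 at 24 h and 159 at 0 h for Esrrb, and 23 at 24 h and 35 at 0 h for Sox2. Their mean relative values lay between -0.21 (Pou5f1) and -0.06 (Esrrb).

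Gaining bins were unevenly spread over chromosomes. Chromosomes 13 to 19 held 123 of the 175 (70.3%) but 31.5% of the bins listed at both times, and 0.932% of their bins were gaining, against 0.181% on the other 13 chromosomes. Chromosome 19 had 34 (1.89% of its bins), chromosome 14 had 24 (1.22%), 12 of them around Klf5, and chromosomes 1 and 3 had 0. The losing bins showed a like spread, with 5.89% of the bins of chromosome 19 and 0.386% of those of chromosome 1. The mean link number in these bins was also higher on chromosomes 13 to 19, at 4.50 at 24 h and 4.88 at 0 h, than on the others, at 3.56 at 24 h and 3.90 at 0 h, and the SD of the change was 1.96 on chromosomes 13 to 19 and 1.45 on the others. A fixed difference of 5 is therefore a smaller step against the spread on these chromosomes. With a limit of 3 SD above each chromosome's own mean change, chosen after the data had been seen, 159 bins passed, 41.5% of them on chromosomes 13 to 19, and 118 were among the 175. Their KLF4 share was 19.5%, against 66.1% of the 496 bins as far below. Among the 175, the KLF4 share was 23.6% on chromosomes 13 to 19 and 9.62% on the others, beside 23.5% and 26.7% of all bins there.

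**Figure D5:**
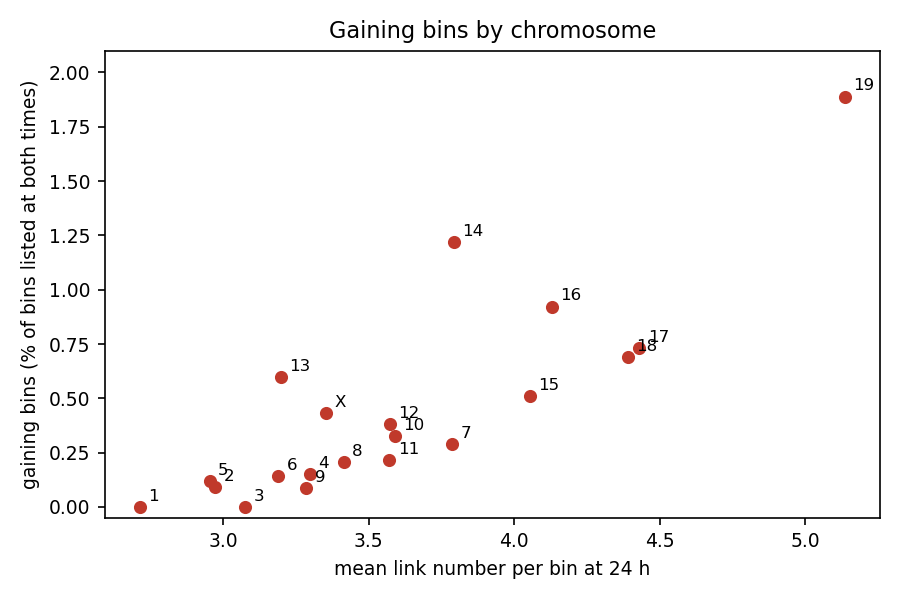
Percent of a chromosome's bins that gained 5 or more links (vertical axis) against its mean link number per bin at 24 h over bins listed at 24 h (horizontal axis), 1 point per chromosome. Chromosome 19 is highest on both axes, with 1.89% of bins gaining, and chromosomes 1 and 3 have 0%.

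Listed bins near a gaining bin were more often higher, and some of them are gaining bins themselves. Bins 10 kb from a gaining bin changed by a mean of 1.40 links, with 63.5% higher and 16.3% lower. Over all bins the mean was -0.35, with 22.5% higher and 37.2% lower. The neighbours at 10 kb include the 27 gaining bins in runs of 2 or more, so part of their mean comes from the selection rule. At 50 kb the mean was 0.62, at 100 kb 0.42, at 200 kb -0.04 and at 500 kb -0.50. The lists do not name the partners of a link, so links shared between these bins and the members were not tested. Where a neighbour is itself a member, its value is the difference that chose it. The nearest other gaining bin lay within 100 kb for 65 of the 175 (37.1%), and the nearest losing bin within 100 kb for 30 (17.1%).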

How the data were processed

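The members, gene lists and tests were chosen with earlier results of these data known. The 12 ChIP-seq samples are represented by 4 deposited lists, tied to groups by their names. The tools named are Bowtie2, MACS2, bedtools and SAMtools, with build mm10 and no versions or roles, per the submitters' processing notes. How replicates were combined, read depth and normalization are not given in the sources used here. In the lists the authors deposited for ESCs, column 4 is an unlabelled whole number, treated as a score and read as links, and column 10 is an H3K27ac signal, where the smallest storable number means no value. Columns 5 to 9 hold marks of unknown meaning, equal at both times. The deposited iPSC lists hold 21563 KLF4 and 55466 H3K27ac peak positions, read as BED.

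Bins listed at both times were joined, and overlap was 1 bp or more. Changes in signal are log2 ratios minus their median over 22739 bins. Intervals are exact (Clopper-Pearson) binomial at 95%, and for medians exact binomial order statistics. Genes and promoters came from RefSeq GRCm38.p6, and a gene was touched by bins within 10 kb of its body. Calculations used Python 3.11.15, pandas 2.3.3, NumPy 2.4.6 and SciPy 1.17.1. On simulated lists of 40000 bins, 200 of 200 gaining bins were found. Those bins were made to meet the rule and the others to miss it, so this checks the code only. Named genes are those at the 10 largest gains, the 10 with most gaining bins, the 5 bins with most KLF4 peaks, the 5 highest and 5 lowest relative values, the 5 highest values at 24 h only, the 5 longest runs and all list genes touched. Ties in these rankings were broken by gain, number or position. Thresholds, scaling, overlap, centring, distance, marked bins and chromosome X were varied.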

Additional observations from a re-analysis of the deposited data

Results flagged for a closer look

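The unlabelled marks in columns 5 to 9 of the ESC lists entered no comparison between groups in the report, and a nonzero mark was present in some gaining bins. Column 5 was marked in 12 of 175 gaining bins (6.86%, exact interval 3.59 to 11.7), against 3.19% of all bins listed at both times. Column 6 was marked in 4 (2.29%, against 1.11%), column 7 in 28 (16%, against 11.9%) and column 8 in 7 (4%, against 3.51%). Column 9 was marked in 0 of 175, where a count of 0 allows up to 1.71% by the rule of 3 counts and 2.09% by the exact interval, against 0.720% of all bins. Among losing bins column 5 was marked in 5.15%, column 6 in 4.76% and column 7 in 27.7%. For columns 8 and 9 the shares of losing bins were 4.12% and 4.38%. What the marks stand for is not stated in the lists.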

How the results depend on the processing

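Across 19 alternatives and 6 summary values, 63 of 76 recomputed values stayed within the interval of the reported value or, for counts, within 1.5 times, and none changed sign. The number of gaining bins, 175, was 428, 77 and 18 with thresholds of 4, 6 and 8. With a threshold of 4 the share valued at 24 h only was 44.2%. With thresholds of 6 and 8 the share with an iPSC H3K27ac peak was 48.1% and 50.0%, and the median relative value 0.66 and 0.82. Scaling the 24 h numbers to the 0 h total gave an H3K27ac peak share of 51.2% and 42.0% valued at 24 h only. Peaks in the bin or 10 kb on either side gave a KLF4 share of 42.9% and an H3K27ac peak share of 60.6%. The value change without centring was 0.16. The changed thresholds, scale, window and centring themselves make these differences. Leaving out the bins marked in columns 5 to 9, chromosome X or, after the data had been seen, the Klf5 group moved no summary value this far. Of 132 recomputed counts of gaining bins at 12 named genes, 29 moved by more than 1.5 times, and Pibf1 ranged between 2 and 7, apart from the setting that removes the Klf5 group and with it every Pibf1 bin. Without the bins marked in columns 5 to 9, Gadd45g had 0 gaining bins in place of 2. No paired analysis was possible because each time has 1 list without replicate values, so replicates could not be left out either. Depth limits are unknown, and with 66 gaining bins valued at both times the intervals are wide.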

Other observations

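Bins that were listed at 24 h and absent from the 0 h list could not be members. Of 5365 such bins, 34 had 5 or more links, with a highest number of 9, and 32 of the 34 had an H3K27ac value at 24 h. An iPSC KLF4 peak lay in 4 of them and an iPSC H3K27ac peak in 8. The highest number was in a bin at Numa1, which encodes a spindle protein, followed with 8 links each by bins at Dll1, a Notch ligand gene, Pacs1 and near Syt7, a synaptotagmin gene. The bin beside the Pcx gaining bin was also among them, with 7 links and the same value of 4.23. A bin can be absent from a list for reasons the lists do not state, so these numbers are not gains.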
